A study of Mus musculus with 10 samples.

Results

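The BCL2 family apoptosis regulators are the 10 genes Bcl2, Bcl2l1, Bcl2l2, Mcl1, Bax, Bak1, Bad, Bid, Bbc3 and Bcl2l11, taken by name from the deposited gene tables, where all 10 are listed among 24972 genes. They were measured by total RNA sequencing of cortex from male C57BL/6 mice aged 2.5 months, 5 of the genotype Atad3 nKO and 5 littermates labelled Atad3 control. What nKO stands for, which exons were removed and what drove the deletion are not stated in the labels. The animals were perfused with PBS before dissection, each library was 1 animal, and the design asks how the nKO cortex differs from that of littermates. Atad3a encodes an ATPase of the mitochondrial inner membrane.

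Proteins of this family decide whether the outer mitochondrial membrane stays closed. BAX and BAK, the executioners, form pores in it and let cytochrome c out, which activates caspases. BCL2, BCL-XL (the product of Bcl2l1), BCL-W (Bcl2l2) and MCL1 are pro-survival members that hold the executioners in check, and the BH3-only members BAD, BID, PUMA (Bbc3) and BIM (Bcl2l11) oppose the pro-survival members or activate the executioners. In the developing nervous system BAX and BCL-XL are known for setting how many neurons survive. Much of the family's control lies in protein cleavage, phosphorylation, location and stability, which RNA levels do not report.

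The genes share the BH3 motif, the short helix through which family members bind each other. The stretches of 9 codons that encode its core are shown to set the 3 classes side by side, read 5′ to 3′ from GENCODE transcripts on mm10, with the codon of the conserved aspartate in capitals.

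Bcl2: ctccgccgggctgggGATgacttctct
Bcl2l1: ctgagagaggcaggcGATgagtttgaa
Bcl2l2: atgcgggctgctggaGACgagtttgag
Mcl1: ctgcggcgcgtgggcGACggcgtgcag
Bax: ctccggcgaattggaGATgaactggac
Bak1: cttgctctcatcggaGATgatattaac
Bad: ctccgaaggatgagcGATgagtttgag
Bid: ctcgcccaaataggcGATgagatggac
Bbc3: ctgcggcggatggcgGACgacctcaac
Bcl2l11: ctgcggcggatcggaGACgagttcaac

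The aspartate codon was GAT in 6 members and GAC in 4. In pro-survival genes the stretch lies, for example, at chr1:106712575-106712601 on the minus strand for Bcl2 (exon 1 of 2) and at chr2:152829697-152829723 on the minus strand for Bcl2l1 (exon 2 of 3). For the executioner Bax it lies at chr7:45465997-45466023 on the minus strand (exon 3 of 6), and for the BH3-only gene Bbc3 at chr7:16313773-16313799 on the plus strand (exon 3 of 4). The pattern searched in the translated transcripts was leucine or methionine, any 3 residues, a glycine, alanine or serine, then aspartate and 2 further residues, and it occurred once in each of the 10 proteins.

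The libraries held 14812639 to 24161361 estimated counts, and the members took 5996 to 8065 of them. Atad3a itself stood at 22.2 to 26.6 CPM in controls and 8.95 to 14.4 CPM in nKO, which is -1.04 on the log2 scale (SE 0.12; edgeR adjusted p = 0.00634). All 8 markers of excitatory cortical neurons were above 0 in every library, and their summed level was 1316 to 1621 TPM in controls and 1593 to 1783 TPM in nKO. The summed levels of microglia markers (293 to 383 against 327 to 370 TPM), astrocyte markers (1257 to 1490 against 1326 to 1394 TPM), oligodendrocyte markers (1553 to 1873 against 1637 to 2012 TPM), inhibitory neuron markers (936 to 1139 against 1113 to 1186 TPM) and endothelial markers (164 to 207 against 159 to 195 TPM) overlapped between the groups. So did those of oligodendrocyte precursors (118 to 160 against 142 to 170 TPM), blood cells (86.4 to 248 against 61.9 to 203 TPM) and the neighbouring regions striatum, hippocampus and choroid plexus (96.4 to 128 against 99.2 to 131 TPM). Of the 7 blood markers 3 were above 0 in every library. Single markers did separate by TPM. Tbr1, listed with excitatory neurons, stood at 23.9 to 32.6 in controls against 37.1 to 56.0 in nKO. Prox1, listed with the neighbouring regions, stood at 2.98 to 3.72 against 4.12 to 5.23. All other listed markers overlapped by TPM. The share of all genes that separate by TPM was not computed, so these markers cannot be set against it. By CPM, in which 1.38% of all tested genes separated, Prox1 did so and 0 of the 8 excitatory markers. These libraries pool all cell types of the cortex, so fewer cells of a type and less RNA per cell cannot be told apart, and the part of these cell type levels in the results below was not tested.

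How much of each member the adult cortex expresses was read from TPM. It is scaled by the transcript length that Salmon estimates as open to fragments, and comparisons between genes rest on that estimate. In controls the order was led by the pro-survival gene Bcl2l2 at 136 ± 10.3 TPM (SD, n = 5), followed by Mcl1 at 80.0 ± 17.8 TPM and Bcl2l1 at 65.2 ± 12.1 TPM (SD, n = 5 each). The executioner Bax stood at 58.3 ± 6.25 TPM and Bak1 at 10.5 ± 1.56 TPM (SD, n = 5 each). Bcl2, the gene that names the family, was the lowest of the pro-survival members at 15.7 ± 1.62 TPM (SD, n = 5).

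Among the BH3-only genes, Bad, whose product is switched off by phosphorylation through growth factor signalling, was the most abundant at 38.4 ± 3.42 TPM (SD, n = 5). Bid, whose product is activated by caspase cleavage, stood at 13.7 ± 3.86 TPM, the p53 target Bbc3 at 5.27 ± 1.41 TPM and Bcl2l11, a FOXO target, at 3.74 ± 0.612 TPM (SD, n = 5 each). The control ranges separated 4 neighbours in this order, Bcl2l2 from Mcl1, Bax from Bad, Bad from Bcl2, and Bak1 from Bbc3. Mcl1, Bcl2l1 and Bax were not separated from their neighbours in turn, nor were Bcl2, Bid and Bak1, nor Bbc3 and Bcl2l11. The highest mean was 36.4 times the lowest. By CPM per kb of annotated length 8 of the 10 members kept their rank. On that scale Bbc3 was the lowest at 0.715, below Bcl2l11 at 1.41, and Bcl2l2 the highest at 46.8.

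**Figure D1:**
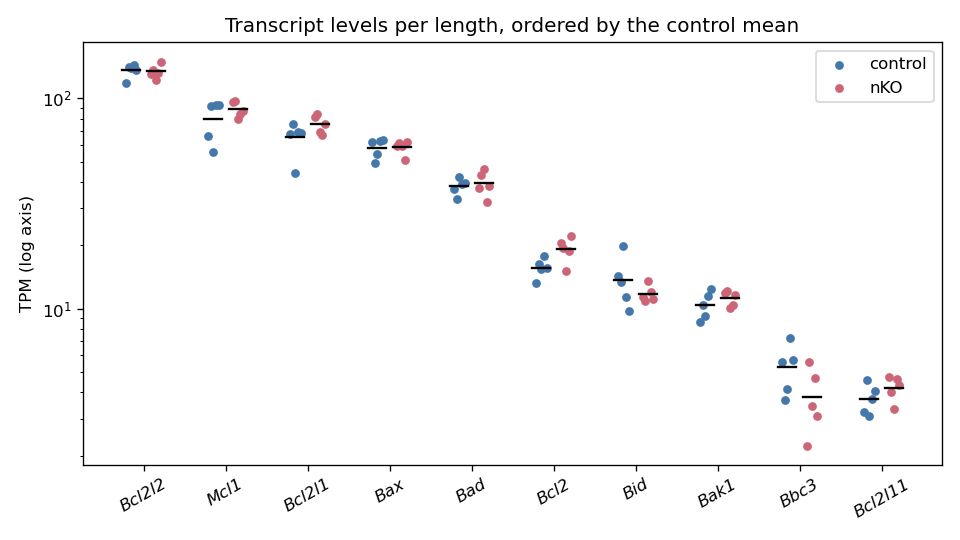
TPM of each member on a log axis, ordered by the control mean, with 1 point per library (5 control and 5 nKO) and a bar at each group mean. Bcl2l2 was highest at 136 TPM in controls and Bcl2l11 lowest at 3.74 TPM, and the points of both groups overlapped for each of the 10 genes.

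Summed over the class, pro-survival transcripts came to 297 ± 33.8 TPM in controls and 318 ± 22.2 TPM in nKO, executioner transcripts to 68.8 ± 6.86 and 70.0 ± 5.13 TPM, and the 4 BH3-only genes to 61.1 ± 5.39 and 59.3 ± 5.63 TPM (SD, n = 5 each). The ratio of summed pro-survival to executioner TPM was 3.75, 5.47, 3.99, 4.37 and 4.17 in controls 1 to 5 and 4.60, 4.59, 4.12, 4.94 and 4.53 in nKO 1 to 5. The nKO values all lay inside the control range. The ratio of Bcl2 to Bax, often quoted as a balance of survival and death, averaged 0.272 ± 0.0451 over control and 0.328 ± 0.0450 over nKO libraries (SD, n = 5 each), with controls from 0.213 to 0.333 and nKO from 0.255 to 0.367. That of Bcl2l1 to Bax was 1.13 ± 0.264 and 1.29 ± 0.0965, and that of Mcl1 to Bak1 was 7.62 ± 1.04 and 7.95 ± 0.278 (SD, n = 5 each). In each of these ratios the groups overlapped. They are descriptions of RNA and were not tested.

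Whether any member differed between the genotypes was asked in a fit over all genes. None of the 10 members passed a 5% false discovery rate by edgeR's quasi-likelihood test, in which 0.0139% of the 14378 genes tested were called, and none had an unadjusted p under 0.05, against 5.65% of all genes. DESeq2 and limma-voom also called 0 members; at an unadjusted p under 0.05 DESeq2 had 1 member, Bbc3, against 5.83% of all genes, and limma-voom had 0, against 6.23%. In none of the 10 did the groups separate, against 1.38% of all genes. By sign, 4 members were higher and 6 lower in nKO, with a median log2 fold change of -0.05, beside 47.8% of all tested genes higher and a median of -0.01. The 4 pro-survival genes had 3 higher (median 0.11), the 2 executioners 0 higher (median -0.08) and the 4 BH3-only genes 1 higher (median -0.20), with 0 called in each class. Without control 1 and nKO 4, 7 of the 10 members were higher, both executioners among them. In that fit the median log2 fold change of all 14380 genes tested was -0.0067, and the share of genes that were higher was not computed. It had 0 members at an unadjusted edgeR p under 0.05, against 1311 of all genes. For Bax and Bad control 1 was the highest and nKO 4 the lowest library in CPM. Leaving both out therefore had to raise the estimates of these genes. All 10 passed the filter on low counts.

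**Figure D2:**
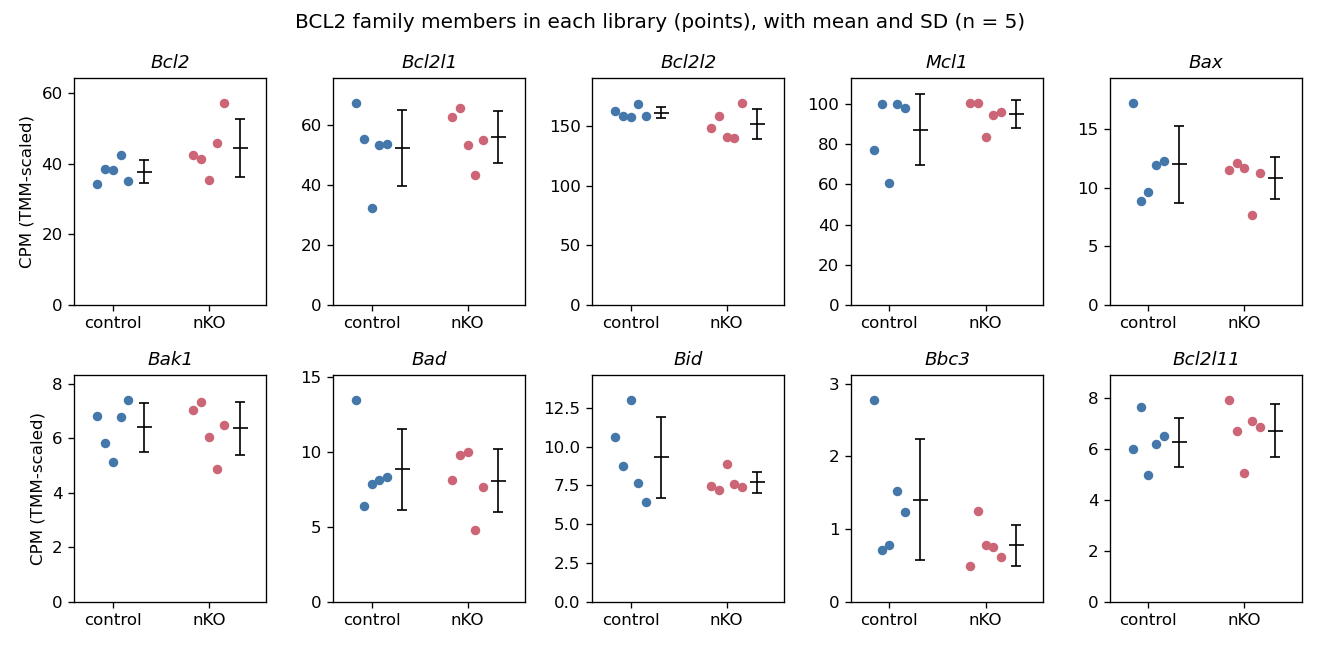
TMM-scaled CPM of each member in the 5 control and 5 nKO libraries, 1 point per library in the order of their replicate numbers, with the group mean and SD beside them (n = 5). The control and nKO points overlap in all 10 panels; control 1 is the highest point for Bbc3, Bad and Bax.

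Among the pro-survival genes, Bcl2 had the largest difference. It stood at 34.4, 38.5, 38.3, 42.6 and 35.1 CPM in controls 1 to 5 and at 42.5, 41.3, 35.5, 45.8 and 57.4 CPM in nKO 1 to 5. nKO 5 was above every other library and nKO 3 was within the lower controls, so the groups overlapped. On the log2 scale nKO exceeded control by 0.24, with an SE of 0.12 and a 95% interval from -0.02 to 0.49 (edgeR adjusted p = 0.820). Without nKO 5 it came to 0.13. With effective length offsets it was 0.24 (SE 0.09) at an unadjusted edgeR p of 0.0187, in a fit where 9.7% of all genes had an unadjusted p under 0.05, and edgeR's adjusted p of 0.485 in that fit was the lowest of all alternatives for a member.

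Bcl2l2, which encodes BCL-W, a survival factor of mature neurons, was the most tightly measured member. Its controls read 163, 159, 158, 169 and 158 CPM and its nKO libraries 149, 158, 141, 140 and 170 CPM. nKO 1, 3 and 4 were below all controls, nKO 5 was above them, and nKO 2 lay among them. Its log2 fold change of -0.09 had an SE of 0.07, the smallest of the 10, and the 95% interval of -0.24 to 0.06 corresponds to 0.847 to 1.04 times the control level. Its SD within groups, 0.0886 on the log2 CPM scale, was smaller than that of 93.4% of tested genes.

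Mcl1 encodes a short-lived protein that neurons depend on. It stood at 77.1, 100.01, 60.9, 100.5 and 98.2 CPM in controls and at 100.6, 100.9, 83.7, 94.9 and 96.0 CPM in nKO. Controls 1 and 3 were the lowest of all 10 libraries, and the other 3 controls lay within the nKO range. A log2 fold change of 0.13 (SE 0.13) with a 95% interval from -0.15 to 0.40 became 0.02 without control 3.

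Bcl2l1, the source of BCL-XL, read 67.5, 55.5, 32.4, 53.3 and 53.7 CPM in controls and 62.8, 65.6, 53.3, 43.2 and 55.1 CPM in nKO. Control 3 was the lowest library and control 1 the highest, so the control range enclosed that of nKO. Its log2 fold change was 0.10 (SE 0.17), with a 95% interval from -0.27 to 0.47. It was -0.04 without control 3 and 0.20 without control 1.

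Of the executioners, Bax stood at 17.3, 8.87, 9.63, 11.9 and 12.2 CPM in controls and at 11.5, 12.1, 11.7, 7.66 and 11.2 CPM in nKO. Control 1 was the highest and nKO 4 the lowest of the 10 libraries, and the other 8 lay between 8.87 and 12.2 CPM. A log2 fold change of -0.14 (SE 0.18), with a 95% interval from -0.54 to 0.25, became 0.02 without control 1 and 0.12 without both of these libraries, which stood at the ends of the first principal component in an earlier analysis of these data. Bak1 read 5.12 to 7.41 CPM in controls and 4.88 to 7.34 CPM in nKO. The estimate of -0.01 on the log2 scale (SE 0.15) had a 95% interval from -0.32 to 0.31, or 0.799 to 1.24 times the control level.

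The BH3-only genes held the largest fold change of the family and the least certain one. Bbc3, which encodes PUMA, stood at 2.78, 0.705, 0.779, 1.52 and 1.24 CPM in controls and at 0.488, 1.24, 0.772, 0.750 and 0.615 CPM in nKO. Control 1 stood far above the rest, while controls 2, 3 and 5 lay within the nKO range. The estimate on the log2 scale was -0.82, with an SE of 0.39 and a 95% interval from -1.66 to 0.01 (edgeR unadjusted p = 0.0532, adjusted p = 0.820). All 10 libraries together held 193 reads of the gene, and 2.66% of tested genes had a larger SD within groups. Without control 1 the log2 fold change was -0.43, and with effective length offsets it was -0.54 (SE 0.28).

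Bid read 10.6, 8.75, 13.0, 7.67 and 6.43 CPM in controls and 7.44, 7.22, 8.90, 7.56 and 7.38 CPM in nKO. The nKO libraries kept within a narrow band that the wider controls enclosed. Its log2 fold change was -0.28, with an SE of 0.17 and a 95% interval from -0.65 to 0.10 (edgeR adjusted p = 0.837), and it was -0.12 without control 3 and -0.38 without control 5.

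Bad stood at 13.5, 6.34, 7.87, 8.14 and 8.34 CPM in controls and at 8.11, 9.76, 9.97, 4.77 and 7.66 CPM in nKO. As for Bax, control 1 was the highest and nKO 4 the lowest of all libraries. Genotypes differed by -0.13 on the log2 scale (SE 0.22), with a 95% interval from -0.61 to 0.35, and this turned to 0.07 without control 1 and to 0.20 without both. Bcl2l11, the source of BIM, lay between 4.96 and 7.63 CPM in controls and between 5.04 and 7.93 CPM in nKO, with a log2 fold change of 0.11 (SE 0.15, 95% interval -0.22 to 0.43), or 0.03 without control 3, 0.04 without nKO 1 and 0.19 without control 2 or nKO 3.

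**Figure D3:**
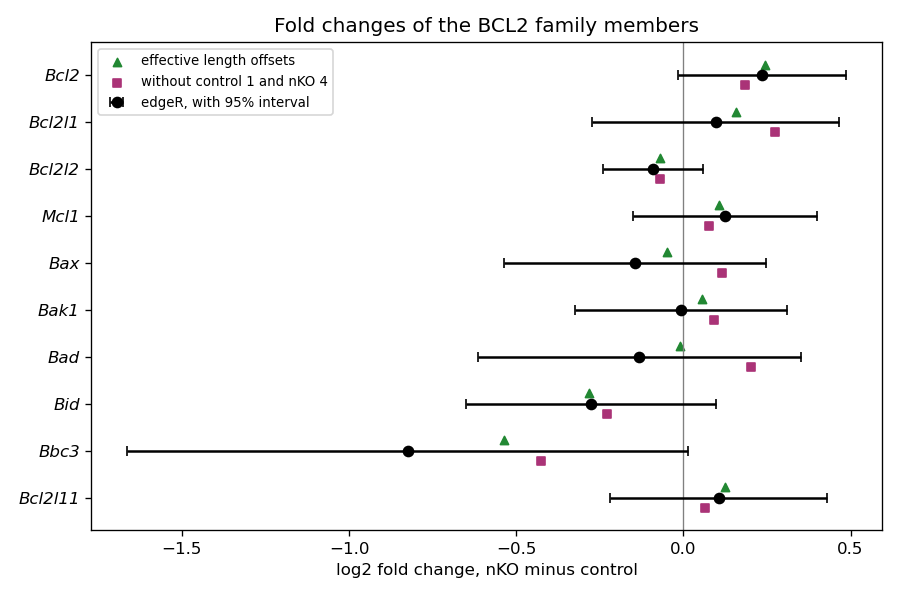
Log2 fold change of nKO over control for each member, with the edgeR estimate and its 95% interval (circles) and the estimates with effective length offsets (triangles) and without control 1 and nKO 4 (squares). Every interval includes 0. The Bax, Bak1 and Bad estimates cross 0 without the 2 libraries, and that of Bbc3 moves from -0.82 to -0.43. For Bax and Bad control 1 was the highest and nKO 4 the lowest library in CPM.

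These intervals bound what the comparison can leave unseen. In 7 of the 10 members the 95% interval lay within 1.5-fold of no change, beside 75.7% of all tested genes. The exceptions were Bad, Bid and Bbc3, whose intervals reached down to 0.653, 0.637 and 0.316 times the control level.

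The members differed in how much their effective length varied between libraries. The effective length, which Salmon estimates per library as the part of a transcript open to fragments, varied between libraries by a factor of 2.79 for Bbc3, 2.22 for Bad, 1.66 for Bax, 1.52 for Bak1 and 1.39 for Bcl2l1. These are also the 5 members with the highest GC content, at 65.2%, 61.3%, 59.2%, 57.1% and 56.4% in the same order. The other 5 members had a GC content of 46.3% to 52.4% and factors of 1.07 to 1.22, and the median factor over all tested genes was 1.14. For genes with several transcripts the effective length also depends on how reads were divided among them. GC content was set beside it for the members alone, and its part in this variation was not tested.

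For Bbc3, Bad, Bax, Bak1, Bcl2l1 and Bcl2l2 alike, control 1 had the largest effective length and nKO 4 the smallest. For Bbc3 these were 1198 and 429 bases, and the other 8 libraries lay between 497 and 611 bases. For Bax they were 666 and 402 bases, against 467 to 539 bases in the others. For Mcl1 the order was reversed, at 2789 bases in control 1 and 2998 bases in nKO 4. The range of Bax narrowed from a factor of 2.25 in CPM to 1.29 in TPM, which divides by effective length, and that of Bad from 2.82 to 1.44. Bbc3 went from 5.69 to 3.24, Bcl2l1 from 2.09 to 1.90 and Bak1 only from 1.52 to 1.44. The range of Bcl2l2 widened from 1.21 to 1.27. For Mcl1, with nearly the same effective length everywhere, the factors were 1.66 in CPM and 1.76 in TPM. Over all tested genes in 4 equal classes of length, the median log2 fold change ran from -0.07 in the shortest, which holds Bax, Bad and Bid, to 0.05 in the longest, which holds Bcl2. Within the middle classes the members lay on both sides of 0: Bbc3 at -0.82, Bcl2l1 at 0.10 and Bak1 at -0.01 share the second class, and Bcl2l2 at -0.09, Mcl1 at 0.13 and Bcl2l11 at 0.11 the third.

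**Figure D4:**
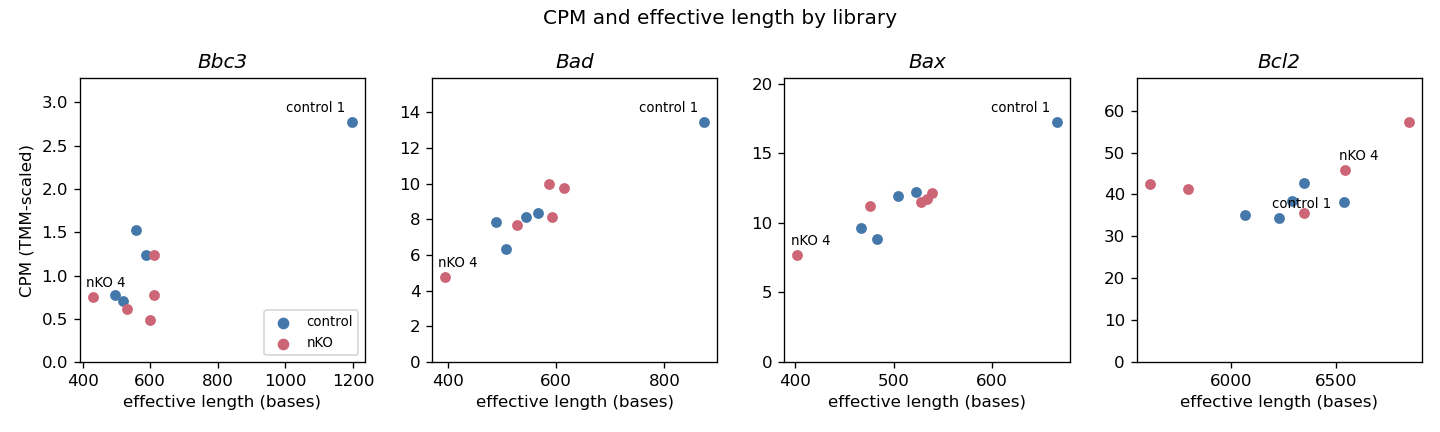
TMM-scaled CPM against effective length in bases for Bbc3, Bad, Bax and, for contrast, Bcl2, with 1 point per library (5 control, 5 nKO). Control 1 is at the upper right for Bbc3, Bad and Bax, at 2.78, 13.5 and 17.3 CPM, and nKO 4 has the smallest effective length in these 3.

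Several members make transcripts with different products, and 22 RefSeq transcripts of the 10 genes are listed, 20 of them with reads. Of the 15 that passed the count filter, 0 were called by edgeR over all transcripts, 0 had an unadjusted p under 0.05 (3.6% of all transcripts tested), and 7 were higher and 8 lower in nKO; 0% of the 22343 transcripts tested were called. A change in transcript usage was tested for Bcl2, Bcl2l1, Bak1 and Bad and called in 0 of these 4 genes, against 0.0211% of 4732 genes, with 0 at an unadjusted p under 0.05 (0.697% of all genes tested). With each library left out in turn, both tests called 0 of them.

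Bak1 is spliced with or without a 20-base exon, and inclusion of this exon is known as a neuronal form, N-BAK. The exon is printed because the 2 listed Bak1 transcripts differ by its length. In GENCODE it is exon 5 of 7 of a transcript annotated for nonsense-mediated decay, at chr17:27021663-27021682 on the minus strand of mm10, and here it stands in capitals between the last 30 bases of the exon before it and the first 30 of the exon after it.

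Bak1 exon: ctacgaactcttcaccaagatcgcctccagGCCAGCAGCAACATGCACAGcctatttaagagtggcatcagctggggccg

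The RefSeq record NR_149749 is 2023 bases long, 20 bases more than NM_007523. It made up 24.2%, 32.8%, 100%, 76.8% and 38.3% of Bak1 TPM in controls 1 to 5 and 54.1%, 64.7%, 72.8%, 87.9% and 84.2% in nKO 1 to 5. The controls spanned both sides of the nKO libraries. Group means were 54.4% ± 32.5 for control and 72.7% ± 13.9 for nKO (SD, n = 5 each), and edgeR's usage test gave an unadjusted p of 0.547. Whether NR_149749 holds exactly the exon shown was not read from its own sequence. Salmon's split between near-identical transcripts is uncertain, and Bak1 had 90.5 to 143.8 estimated reads per library. For NR_149749 alone the log2 fold change was 0.43 (SE 0.35), and for NM_007523 it was -0.76 (SE 0.997).

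Bcl2 is transcribed as a long form, NM_009741, and a shorter one, NM_177410, and the long form held 89.7% ± 3.25 of its TPM in controls and 89.0% ± 9.43 in nKO libraries (SD, n = 5 each). Of the Bcl2l1 transcripts, NM_009743 held 64.4% ± 4.88 and 65.6% ± 4.71 and NM_001289716 held 30.6% ± 3.74 and 32.1% ± 4.15 (SD, n = 5 each). NM_001289739 and NR_149254 were listed at 0 in every library. For Bad, NM_001285453 held 79.7% ± 4.76 and 79.0% ± 3.56 (SD, n = 5 each). The 5 transcripts of Bcl2l11 shared 84.5 to 131.8 reads per library, of which NM_207680 held 64.6% ± 26.4 and 63.2% ± 26.8 (SD, n = 5 each). The other 4 had reads in 5, 5, 3 and 1 of the 10 libraries.

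**Figure D5:**
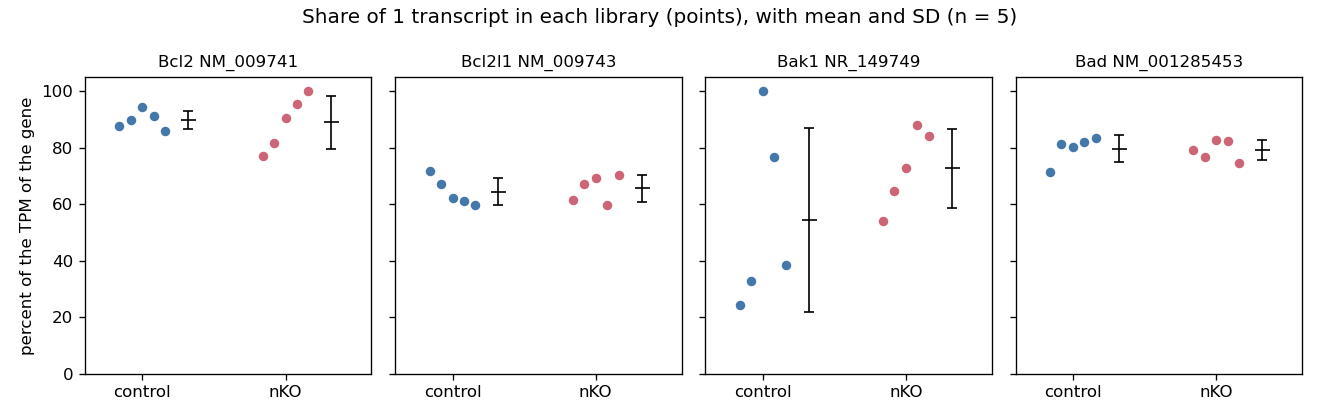
Share of 1 transcript in the TPM of its gene, in percent, for Bcl2, Bcl2l1, Bak1 and Bad, with 1 point per library in replicate order and the mean and SD of each group (n = 5). The Bak1 share runs from 24.2% to 100% in controls, while that of Bad stays between 71.4% and 83.5% over all libraries.

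Some reads of these genes could belong to neighbours. Bcl2 overlaps the antisense gene D630008O14Rik, Bcl2l2 overlaps Gm20521 on the same strand and Bax overlaps Gm45808 on the same strand, and these 3 neighbours have no row of their own in the gene tables used here. Bad overlaps Gpr137, Bid overlaps Bcl2l13 and Bak1 overlaps Ggnbp1, each on the opposite strand. Bcl2 also overlaps Gm37053 and Bid also overlaps Gm44260, each on the same strand and without a row of its own. The library kit keeps strand, but no source used here says whether the counting used it.

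Beyond the 10, the cortex expressed further members of the family. Of 15 other BCL2 family and BH3-containing genes, 9 passed the count filter, 4 higher and 5 lower in nKO, with a median log2 fold change of -0.09 and 0 called by edgeR (0 at an unadjusted p under 0.05). Bnip3 and Bnip3l, which encode mitophagy receptors of the outer membrane, were the most abundant at 277 ± 23.5 and 147 ± 13.1 TPM in controls (SD, n = 5 each). Their log2 fold changes were -0.15 (SE 0.09) and 0.03 (SE 0.08). Bok, a BAX-like member, stood at 64.8 ± 7.74 TPM in controls (SD, n = 5), with a log2 fold change of -0.29 (SE 0.21), or -0.05 without control 1.

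Hrk, a BH3-only gene known from neurons, read 26.2, 38.3, 38.2, 36.6 and 34.5 CPM in controls and 39.6, 52.1, 34.7, 51.0 and 34.3 CPM in nKO. nKO 1, 2 and 4 were above all controls, and nKO 3 and 5 lay among them. Its log2 fold change was 0.28, with an SE of 0.14 and a 95% interval from -0.02 to 0.59 (edgeR adjusted p = 0.820). It was 0.11 without control 1 and nKO 4, and 0.19 to 0.35 with single libraries left out. Its level in controls, 17.2 ± 2.95 TPM (SD, n = 5), overlapped that of Bcl2 and was above the range of Bbc3 and of Bcl2l11.

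Bcl2l13, another mitophagy receptor, stood at a log2 fold change of 0.02 (SE 0.08), the BH3-only gene Bmf -0.09 (SE 0.14), and Pmaip1, which encodes the p53-induced protein NOXA, -0.26 (SE 0.20). Bcl2l15 stood at -0.23 (SE 0.35; -0.02 without control 3 and -0.43 without control 5) and Bcl2a1b at 0.01 (SE 0.34); Bcl2a1a, Bcl2a1b and Bcl2a1d are near-identical copies whose reads cannot be told apart with certainty. Bcl2a1a, Bcl2a1d, Bcl2l10, Bik and Bcl2l12 did not pass the count filter, with at most 10.1 reads in a library, and Bcl2l14 was listed at 0 in all 10 libraries.

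The genes up- and downstream of the family gave the same outcome. Over the 61 tested genes of all 6 lists around the members, including the 9 family genes above, 0 were called by edgeR, DESeq2 or limma-voom, and each of the 3 tools had 4 at an unadjusted p under 0.05. That share is near the 5.65%, 5.83% and 6.23% of all genes that edgeR, DESeq2 and limma-voom had there, so the 4 are named by their values only. The count moved with the setting. By edgeR with effective length offsets it was 6 of 61, beside 9.7% of all genes. Without control 1 and nKO 4 it was 9 of 61, beside 1311 of 14380 genes. In both fits 0 of the 61 were called. Among transcriptional inducers of BH3-only genes 4 of 7 were higher (median log2 fold change 0.06). Trp53, which encodes p53, stood at 3.34 ± 1.22 CPM in controls and 5.01 ± 0.960 CPM in nKO libraries (SD, n = 5 each), or 0.59 on the log2 scale (SE 0.25; edgeR unadjusted p = 0.0335, adjusted p = 0.820). Foxo1, a transcription factor that can induce Bcl2l11, stood at 0.45 (SE 0.19; edgeR unadjusted p = 0.0336, adjusted p = 0.820), Foxo3 at 0.14 (SE 0.22) and Jun at -0.21 (SE 0.21).

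Of 12 other p53 targets 4 were higher, and the median difference was -0.03 on the log2 scale. Perp, a p53 target of cell junctions, was at -0.27 (SE 0.12; edgeR unadjusted p = 0.0377, adjusted p = 0.820), Mdm2, the ubiquitin ligase of p53, at 0.22 (SE 0.13), Sesn1 at -0.13 (SE 0.08) and Trp53inp1 at 0.11 (SE 0.11). The p53 targets in the family itself, Bbc3 and Pmaip1, were at -0.82 and -0.26 as given above, and Bax at -0.14.

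Downstream, caspases and the apoptosome had 5 of 11 genes higher (median log2 fold change -0.04). Apaf1, the scaffold that cytochrome c activates, was at 0.25 (SE 0.15; 0.14 without control 1 and 0.13 without nKO 4), the initiator Casp9 at -0.09 (SE 0.10), and Casp6 at -0.19 (SE 0.19). Death factors of the intermembrane space and inhibitors of apoptosis had 5 of 9 higher (median 0.04). The protease gene Htra2 was at -0.25 (SE 0.11; edgeR unadjusted p = 0.0362, adjusted p = 0.820), the nuclease gene Endog at -0.50 (SE 0.29; -0.14 without control 1), and the inhibitors Birc5 and Birc6 at 0.40 (SE 0.29; -0.07 with effective length offsets) and 0.10 (SE 0.08). Genes whose proteins bind, modify or degrade family proteins had 5 of 13 higher (median -0.03), with Huwe1, a ubiquitin ligase of MCL1, at 0.16 (SE 0.08), Bag3 at 0.41 (SE 0.22), Mapk9 at 0.08 (SE 0.07) and the BCL2 partner Becn1 at -0.08 (SE 0.08).

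The genes most like each member across animals were sought with the genotype means removed, over 10 libraries and the tested genes with a mean of at least 5 CPM, so the highest of many correlations is given and no test is made. They were Isoc1 and Fli1 for Bcl2, Hs6st1 and Spns2 for Bcl2l1, Ptrhd1 and Creld2 for Bcl2l2, and Nup98 and Mdm2 for Mcl1. For the executioners they were Fcho1 and Matk for Bax and Dpf1 and Aldh7a1 for Bak1. For the BH3-only genes they were Mrps11 and Taldo1 for Bad, Sugp1 and Mpzl1 for Bid, Sufu and Ubap2 for Bbc3, and Htr5a and Zfp934 for Bcl2l11. Pearson's r of these 20 ran from 0.877 for Creld2 with Bcl2l2 to 0.993 for Fcho1 with Bax.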

How the data were processed

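Total RNA of 10 cortex libraries, 5 per genotype, was analysed. The estimated counts and TPM per gene and transcript are Salmon output as deposited, per the file headers; per the submitters' processing notes the tools were DESeq2, Salmon and bcl2fastq and the build mm10, with versions, annotation release and strand setting not given in the sources used here. A deposited table by the authors holds a score of unstated scale for 22 genes; 0 of the 10 members are in it, and it was not used further. Members and gene lists were chosen with earlier results of these data known.

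Estimated counts were rounded, filtered with edgeR's filterByExpr (minimum count 10, total 15), scaled by TMM and tested with edgeR's quasi-likelihood test in R 4.3.3 (edgeR 4.0.16), fitted over 14378 genes with Benjamini-Hochberg adjustment and a threshold of 0.05. Library sizes were 14812639 to 24161361 estimated counts, which limits precision for genes with few reads. CPM values are TMM-scaled; a replicate is 1 animal's library, and SDs are over 5 libraries. Transcripts were tested the same way, and transcript usage with edgeR's diffSpliceDGE. The scripts were tested on simulated data. Alternatives were DESeq2 1.42.0, limma-voom (limma 3.58.1), other scalings and filters, effective length offsets, each library left out in turn, and control 1 and nKO 4 left out together; effective length offsets for transcripts were added after seeing the data. The text names all members and some of their transcripts, other family genes, Atad3a, up to 4 genes with the smallest unadjusted p from each pathway list, and the 2 genes most like each member. One gene that this rule names is not reported here. BH3 and exon sequences were read from GENCODE M21 transcripts and annotation of mm10. No sequence of the proteins is shown.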

Additional observations from a re-analysis of the deposited data

Results flagged for a closer look

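Within the groups of 5 libraries, 50 sets of values of the members were examined for a single value far from the rest, by Dixon's criterion. Chance flags about 1 in 20 such sets, and 7 were found. The sets share libraries and counts and are not independent, so the 7 cannot be read as an excess. Control 3 was low for Bcl2l1 at 44.4 TPM, and control 1 was low for Bcl2l2 at 118 TPM. Bax was low in nKO 4, at 7.66 CPM and 51.0 TPM. Bad was high in control 1, at 13.5 CPM, with an effective length of 874 bases there against 489 to 615 bases in the 8 libraries other than control 1 and nKO 4. Bid was high in nKO 3, at 8.90 CPM. The ratio of Mcl1 to Bak1 TPM was low in nKO 5, at 7.46. Causes of these values were not tested.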

How the results depend on the processing

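Of the 10 members, 0 were called at 5% under every alternative run, and edgeR, DESeq2 and limma-voom adjusted p-values of members ran from 0.485 to 0.998 over the alternatives. Bbc3 could not be fitted under the filter of at least 1 CPM in 5 libraries. Over all genes DESeq2 called 5, edgeR 2, and edgeR 2 to 3 with a library left out. By CPM per kb of annotated length the control ranges separated 2 neighbouring pairs of members, against 4 by TPM. The scalings moved the median log2 fold change of all genes by less than 0.1.

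The estimates whose sign turned against the main fit are given first, by setting. Without control 1 and nKO 4 the log2 fold changes were 0.12 for Bax, 0.092 for Bak1, 0.20 for Bad, -0.25 for Bcl2a1b, -0.055 for Bnip3l, -0.00504 for Mapk9, 0.083 for Jun, -0.017 for Trp53inp1, 0.12 for NM_007527, 0.13 for NM_001285453 and 0.41 for NM_007522. With effective length offsets they were 0.055 for Bak1, -0.036 for Bcl2a1b, -0.073 for Birc5 and 0.019 for NM_007522, and with library size alone -0.00280 for Bcl2a1b. With single libraries left out the ranges were -0.23 to 0.067 for Bad, -0.081 to 0.067 for Bak1, -0.23 to 0.022 for Bax, -0.16 to 0.15 for Bcl2a1b, -0.038 to 0.20 for Bcl2l1, -0.026 to 0.048 for Bcl2l13, -0.017 to 0.059 for Bnip3l, -0.013 to 0.34 for Foxo3, -0.31 to 0.032 for Jun, -0.26 to 0.0032 for NM_001285453, -0.29 to 0.24 for NM_007522, -0.24 to 0.012 for NM_007527, -0.035 to 0.26 for NM_009743, -0.26 to 0.60 for NM_177410 and -0.11 to 0.33 for NM_207680. Among genes around the family, these ranges were 0.22 to 0.50 for Bag3, -0.28 to -0.10 for Casp6 and 0.12 to 0.30 for Mdm2. Estimates that kept their sign also moved without control 1 and nKO 4. Endog went from -0.50 to -0.054, Apaf1 from 0.25 to 0.026 and Bok from -0.29 to -0.027. Birc5, from 0.40 to 0.53, and Bcl2l1, from 0.10 to 0.28, became larger. The cause of these shifts was not tested. No paired analysis was possible because the labels number the libraries in one running series and pair none across genotypes. Bbc3 had 193 estimated reads in all and the largest SE of the members, 0.39; the part of depth in it was not tested.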
